A study of Mus musculus with 14 samples.

Results

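Ifitm1, Ifitm2 and Ifitm3 are 3 of the 13084 genes, and 3 of the 22626 probe sets, measured on arrays of mouse colorectal tumors and of colon epithelium. The members were every probe set whose gene symbol in the deposited table is Ifitm1, Ifitm2 or Ifitm3, which gave 1 probe set for each gene: 1424254_at for Ifitm1, 1417460_at for Ifitm2 and 1423754_at for Ifitm3. These genes were chosen with their tumor against control values in view, so those values are given as a description and without a test. The arrays carry 1 colour and were hybridised with labelled cRNA from total RNA. The study set tumors of 2 mouse models against epithelium and so asked how tumors that arise with colitis differ from those that arise without it.

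Colitis-associated cancer (CAC) tumors came from 4 male C57BL/6J mice that had received the carcinogen azoxymethane at 10 mg/kg and 3 cycles of 2.5% dextran sodium sulfate, a colitis agent, for 7 days each with 14 days of recovery. CAC control epithelium was 2 pools of 5 C57BL/6J mice each, and the labels do not say whether these mice had been treated. Sporadic tumors came from 5 male C57BL/6J-ApcMin/+/J mice, which carry 1 truncating germline allele of the Wnt pathway inhibitor Apc in all cells and develop tumors with no carcinogen. Sporadic control epithelium was 3 pools of 4 mice each whose strain label is also C57BL/6J-ApcMin/+/J, so these controls carry the same allele. Epithelium was released from the last part of the large intestine with EDTA, EGTA and dithiothreitol, and tumors went through the same incubation. The labels place the CAC arrays in block 1 of the experiment and those of the other model in block 2, so model, strain and block cannot be told apart. An array of a tumor holds 1 mouse, an array of a control holds a pool, and p-values therefore rest on the spread between these samples.

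Ifitm proteins are small membrane proteins that interferons induce in many cell types. Ifitm3 sits largely in endosomes and lysosomes and blocks the entry of enveloped viruses such as influenza virus at membrane fusion. Human IFITM1 is found more at the cell surface, and its mouse counterpart shares that antiviral activity. In the intestine, members of the family have also been described as genes that respond to Wnt and beta-catenin signalling in adenomas and carcinomas. The genes lie side by side on mouse chromosome 7, in the order Ifitm5, Ifitm2, Ifitm1, Ifitm3 and Ifitm6, between Pgghg and B4galnt4.

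The promoter windows of the 3 genes are shown because 2 signalling inputs described for the family, interferon and Wnt, have short DNA motifs that can be looked for. All 3 genes had an entry in the RefSeq promoter set of build GRCm38.p6, which runs from 250 bases before to 50 bases after each gene's start. Capitals mark matches to the core of the interferon-stimulated response element, the motif through which type I interferons act, or of the gamma-activated site, TTCNNNGAA. The Ifitm1 window is chr7:140967826-140968125 on the + strand, that of Ifitm2 is chr7:140955912-140956211 on the - strand and that of Ifitm3 is chr7:141010695-141010994 on the - strand.
Ifitm1: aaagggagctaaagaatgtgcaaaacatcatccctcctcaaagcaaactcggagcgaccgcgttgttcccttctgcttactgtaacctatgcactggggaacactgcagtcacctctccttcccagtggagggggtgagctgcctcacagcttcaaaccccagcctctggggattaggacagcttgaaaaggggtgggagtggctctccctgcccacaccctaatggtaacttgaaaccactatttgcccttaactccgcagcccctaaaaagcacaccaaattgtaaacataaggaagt
Ifitm2: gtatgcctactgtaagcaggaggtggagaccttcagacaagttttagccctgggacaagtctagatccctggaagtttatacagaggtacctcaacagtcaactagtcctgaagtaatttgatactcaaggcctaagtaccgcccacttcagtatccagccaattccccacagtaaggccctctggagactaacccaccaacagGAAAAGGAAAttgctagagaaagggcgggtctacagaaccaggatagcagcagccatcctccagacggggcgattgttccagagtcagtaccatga
Ifitm3: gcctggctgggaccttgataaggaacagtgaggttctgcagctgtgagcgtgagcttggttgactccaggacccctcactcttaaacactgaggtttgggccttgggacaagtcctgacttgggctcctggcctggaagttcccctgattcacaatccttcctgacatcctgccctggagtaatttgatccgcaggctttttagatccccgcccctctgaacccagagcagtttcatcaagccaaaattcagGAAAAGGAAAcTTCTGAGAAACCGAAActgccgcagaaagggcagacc

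Both strands were searched. The Ifitm2 window held 1 match to the response element core, GAAAAGGAAA, from 46 to 37 bases before the start. The Ifitm3 window held 2 matches to the response element core, GAAAAGGAAA at bases 3 to 12 and GAAACCGAAA at bases 20 to 29 after the start. The same window held 1 match to TTCNNNGAA, TTCTGAGAA at bases 14 to 22 after the start, which overlaps GAAACCGAAA. The Ifitm1 window held no match to either motif, and no window of the 3 held ATCAAAG, a core of the TCF/LEF factors that act with beta-catenin. Of 32851 mouse promoter windows of this length, 3.44% held the response element core, 8.3% held TTCNNNGAA and 3.73% held ATCAAAG. A match describes the letters of the window and shows no binding.

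Across the 14 arrays the median intensity lay between 15 and 18, and between 9342 and 9993 probe sets reached 32. The first principal component (67.5% of the variance) separated tumors from control epithelium, and the second (11.1%) separated the blocks. On the third (5.1%), CAC tumor 1 stood apart at 65.8, while the other arrays lay between -21.7 and 10.7. The 18S ribosomal RNA control probe set, on the log2 scale, read 4.275 to 5.424 in CAC tumors and 5.737 to 5.813 in CAC controls, against 2.797 to 2.918 in sporadic tumors and 2.797 to 2.969 in sporadic controls. The log2 ratio of 3' over 5' beta-actin probe sets, a measure of RNA integrity, was 0.745 to 0.833 in CAC tumors and 0.964 to 1.272 in sporadic tumors. Precision is limited by the number of arrays in each group.

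All 3 genes were far brighter in every tumor than in every control array. Geometric means were higher by 229-fold for Ifitm1, 8.2-fold for Ifitm2 and 76-fold for Ifitm3 in CAC tumors over CAC controls. In sporadic tumors over sporadic controls the ratios were 564-fold, 10.2-fold and 98.1-fold for the same genes in the same order. Since these are the values the genes were chosen on, nothing is read from their direction. Of all probe sets, 17.9% had every CAC tumor above every CAC control and 17.5% had every sporadic tumor above every sporadic control.

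Ifitm1, whose human counterpart is also known as a leukocyte adhesion antigen, read 875, 2467, 3355 and 2254 in CAC tumors 1 to 4, against 7 and 11 in the CAC controls. In sporadic tumors 1 to 5 Ifitm1 read 3645, 5710, 3943, 3755 and 3659, against 6, 7 and 9 in the sporadic controls. The controls of both models thus lay below the median intensity of their arrays, where values have little resolution, and every tumor lay far above it. The log2 change was 7.84 ± 0.45 (SE, 4 and 2 arrays) for CAC tumors and 9.14 ± 0.38 (SE, 5 and 3 arrays) for sporadic tumors. With 16 added to each intensity before log2, the changes were 6.35 and 7.46.

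Ifitm2, a close relative of Ifitm3 with antiviral activity of its own, read 3699, 4277, 4326 and 4143 in CAC tumors 1 to 4, against 484 and 518 in the CAC controls. In sporadic tumors 1 to 5 Ifitm2 read 5259, 4324, 5112, 5329 and 5124, against 457, 530 and 493 in the sporadic controls. Each control pool thus already read well above the median of its array, and no tumor came near a control. The log2 change of Ifitm2 was 3.03 ± 0.09 (SE) for CAC tumors and 3.35 ± 0.08 (SE) for sporadic tumors.

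Ifitm3, the endosomal restriction factor, read 5657, 8282, 9136 and 6265 in CAC tumors 1 to 4, against 70 and 128 in the CAC controls. In sporadic tumors 1 to 5 Ifitm3 read 7699, 13642, 9980, 9304 and 9304, against 108, 105 and 88 in the sporadic controls. No tumor came near a control in either model. The log2 change of Ifitm3 was 6.25 ± 0.28 (SE) for CAC tumors and 6.62 ± 0.24 (SE) for sporadic tumors. The authors' deposited table lists increases of 227.75-fold and 555.47-fold for Ifitm1, 8.19-fold and 10.18-fold for Ifitm2, and 75.99-fold and 98.4-fold for Ifitm3 in the CAC and the sporadic model.

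**Figure D1:**
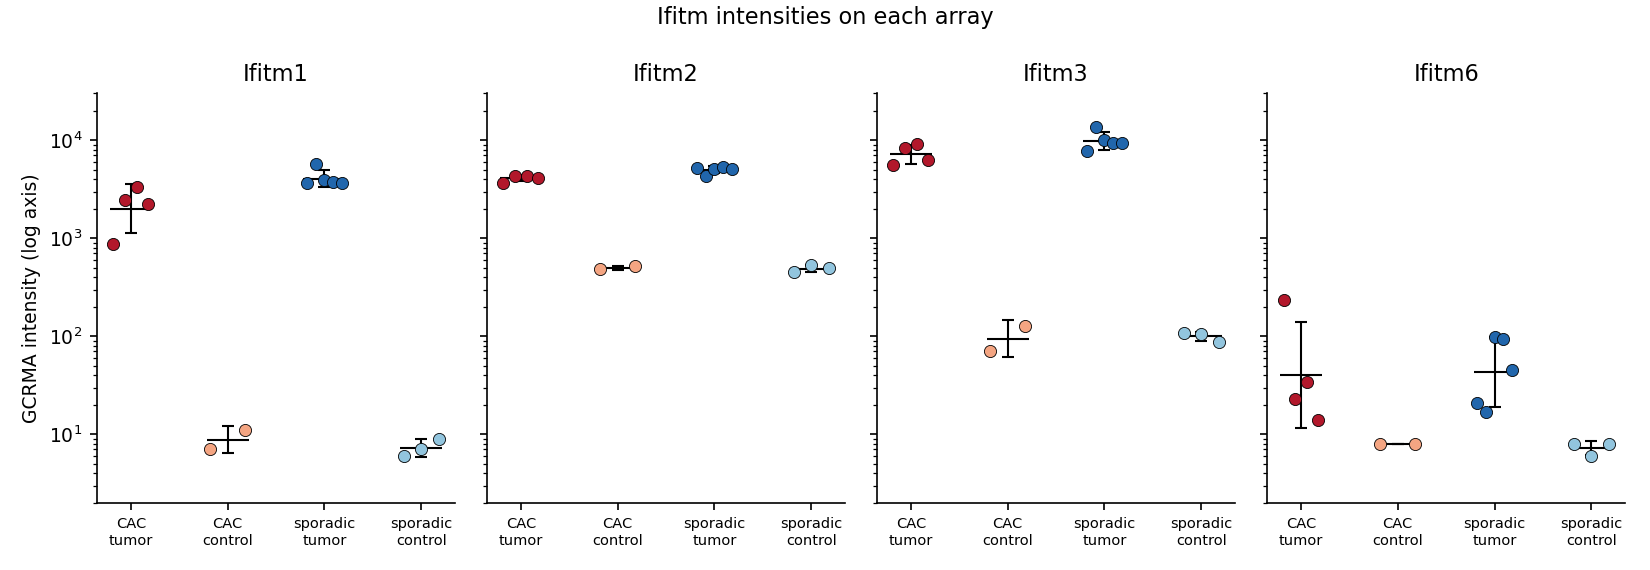
GCRMA intensity (log axis) of the probe sets of Ifitm1, Ifitm2, Ifitm3 and the neighbouring family gene Ifitm6 on each of 14 arrays in 4 groups. Points are arrays, bars are geometric means and whiskers are 1 SD of the log2 values. For the 3 members every tumor lies above every control, with Ifitm1 controls between 6 and 11, and Ifitm6 lies between 14 and 237 in tumors.

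The tumors of the 2 models can be compared directly, and no control value enters the difference. Its SE, interval and limma p still draw on the spread within all 4 groups, controls included. Ifitm2 was lower in CAC tumors than in sporadic tumors, with geometric means of 4104 and 5016 and a log2 difference of -0.29 ± 0.07 (SE; 95% interval -0.45 to -0.13). This difference passed the test (limma, Benjamini-Hochberg adjusted over all probe sets, adjusted p = 0.0198), in a comparison where 7.58% of all probe sets were called lower in CAC tumors. The groups met at 1 point, since CAC tumor 3 read 4326 and sporadic tumor 2 read 4324. When the test was limited to probe sets with a mean of at least 32, limma's adjusted p was 0.0536.

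Ifitm1 had geometric means of 2010 in CAC tumors and 4078 in sporadic tumors, a log2 difference of -1.02 ± 0.35 (SE; 95% interval -1.78 to -0.26). It did not pass in limma (adjusted p = 0.0746), although all 4 CAC tumors lay below all 5 sporadic tumors, as was the case for 7.24% of all probe sets. Part of the size came from CAC tumor 1, and without that array the difference was -0.62. With the test limited to probe sets with a mean of at least 32, limma's adjusted p was 0.0317, and without CAC tumor 3 it was 0.0389. With only the tumor arrays fitted, limma's adjusted p was 0.141. An exact two-sided permutation test of this gene alone over 126 splits of the tumors gave p = 0.0159, the smallest that these splits allow. That p is not adjusted over probe sets, and limma's p for Ifitm1 before adjustment was 0.0136. Ifitm3 had geometric means of 7196 in CAC tumors and 9807 in sporadic tumors, and its log2 difference of -0.45 ± 0.22 (SE; 95% interval -0.93 to 0.04) did not pass in limma (adjusted p = 0.219). The 18S signal also differs between these tumors, as given above, and its part in these differences was not tested.

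None of the 3 genes passed between the control epithelium of the models. Ifitm2 had geometric means of 501 in CAC controls and 492 in sporadic controls, a log2 difference of 0.02 with a 95% interval of -0.19 to 0.24. For Ifitm3, with 94.7 in CAC controls and 99.9 in sporadic controls, the difference was -0.08 (95% interval -0.73 to 0.58). For Ifitm1, with 8.77 in CAC controls and 7.23 in sporadic controls, it was 0.28 (95% interval -0.76 to 1.32). The adjusted p in limma lay between 0.858 and 1, in a comparison where 14% of all probe sets passed, and the intervals of Ifitm1 and Ifitm3 are wide. The log2 change in CAC tumors minus that in sporadic tumors, given as a description since both changes chose the genes, was -1.3 ± 0.58 for Ifitm1, -0.31 ± 0.12 for Ifitm2 and -0.37 ± 0.37 for Ifitm3 (log2, SE). For Ifitm3 this value was 0.07 when CAC control 2 was left out and -0.8 when CAC control 1 was.

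Of the 3 genes, Ifitm2 varied least from tumor to tumor. Its SD on the log2 scale was 0.1 over the 4 CAC tumors and 0.12 over the 5 sporadic tumors, while the median SD of probe sets with a mean of at least 32 was 0.26 and 0.24 in these groups. Ifitm3 had SDs of 0.33 over CAC tumors and 0.3 over sporadic tumors. Ifitm1 had an SD of 0.84 over CAC tumors, where its brightest array was 3.83 times its dimmest, and 0.28 over sporadic tumors. CAC tumor 1 was the dimmest CAC tumor for each member, at -1.2 log2 units from the group mean for Ifitm1, -0.15 for Ifitm2 and -0.35 for Ifitm3. Sporadic tumor 2 was the brightest sporadic tumor for Ifitm1 and Ifitm3, at 0.49 and 0.48 log2 units above the mean, and the dimmest for Ifitm2, at -0.21.

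Of the other Ifitm genes and related dispanins, 3 of 12 were measured with a probe set of 1 gene symbol: Ifitm6, Ifitm10 and Prrt1. Ifitm6, a family member next to Ifitm3, read 237, 23, 34 and 14 in CAC tumors 1 to 4, against 8 in each CAC control. In sporadic tumors 1 to 5 Ifitm6 read 21, 17, 98, 94 and 45, against 8, 6 and 8 in the sporadic controls. CAC tumor 1, the dimmest CAC tumor for the 3 members, was thus by far the brightest for Ifitm6. Ifitm6 rose in sporadic tumors (log2 change 2.57 ± 0.88, limma adjusted p = 0.0336; 17.8% of all probe sets were called higher) and did not pass in CAC tumors (2.33 ± 1.04, adjusted p = 0.0994; 14.2% were called higher). The call in sporadic tumors was lost without sporadic tumor 3, 4 or 5 or without any 1 of the sporadic controls, and also with 16 added to each intensity before log2 (1.42, limma adjusted p = 0.109). Ifitm10 and Prrt1 had geometric means of at most 5 in all 4 groups and passed no test.

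Of 48 measured interferon-inducible genes (63 listed, Ifitm genes left out), 3 rose and 11 fell in CAC tumors, beside 14.2% of all probe sets called higher and 25.6% called lower. In sporadic tumors 6 rose and 9 fell, beside 17.8% called higher and 28.2% called lower. The median log2 change of the list was 0.0 for CAC tumors and 0.02 for sporadic tumors, and that of all probe sets was -0.05 and -0.04. The count that rose in CAC tumors was 5 without CAC tumor 1 and 1 without either CAC control, and the count that fell was 7 and 6. The fallen genes include Mx1 (CAC tumors) and Cxcl11 (tumors of both models), whose geometric means were at most 9 in every group. In sporadic tumors 3 rose without sporadic control 3.

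Among those that rose was Usp18, a protease that removes Isg15 and dampens interferon receptor signalling, with geometric means of 57.8 in CAC tumors and 6.32 in CAC controls (log2 change 3.19 ± 1.14, limma adjusted p = 0.0461). In sporadic tumors Usp18 reached 226, against 6 in controls (5.24 ± 0.96, limma adjusted p = 0.00113). Ifit2, which binds viral and cellular RNA, reached 84.3 in CAC tumors against 11 in controls, and 193 in sporadic tumors against 9.52 in controls. Lgals3bp, a secreted glycoprotein, reached 1752 in sporadic tumors against 295 in controls. Among those that fell were Samhd1, a dNTP hydrolase, at 87.6 in CAC tumors against 361 in controls, and Ifih1, the RNA sensor MDA5, at 151 in CAC tumors against 525 in controls. Isg20, an exonuclease, stood at 34.5 in sporadic tumors against 214 in controls.

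Of 26 measured interferon ligands, receptors and signalling genes, 3 rose and 8 fell in CAC tumors, and 5 rose and 7 fell in sporadic tumors. These counts are near the shares of all probe sets, 14.2% higher and 25.6% lower in CAC tumors and 17.8% and 28.2% in sporadic tumors. They are not read as a result about the list, and single genes are given instead. The type I receptor genes rose: Ifnar2 had geometric means of 80.7 in CAC tumors and 6.71 in CAC controls (log2 change 3.59 ± 0.5, limma adjusted p = 2.23e-04), and 119 in sporadic tumors and 9.15 in sporadic controls (3.7 ± 0.42, limma adjusted p = 3.96e-05). Ifnar1 rose by less, with log2 changes of 1.43 ± 0.41 in CAC tumors and 1.47 ± 0.34 in sporadic tumors. Ifngr1, the ligand-binding chain of the interferon gamma receptor, fell, with 262 in CAC tumors against 761 in controls and 123 in sporadic tumors against 422 in controls. Its partner Ifngr2 passed no tumor against control test, with log2 changes of -0.07 and -0.09.

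Irf7, the factor that amplifies type I interferon production, had log2 changes of -1.2 ± 0.8 in CAC tumors and -1.19 ± 0.68 in sporadic tumors and passed neither test (limma adjusted p = 0.279 and 0.186). The ligand genes measured, Ifnb1, Ifng and 4 interferon alpha genes, had geometric means of at most 7 in every group, a level at which a missing transcript and a weak one look alike. The counts of fallen genes given before include such steps, for Ifnb1 (5 in CAC tumors against 6 in controls), Ifna1 (6 in CAC tumors against 7 in controls) and Ifng (5 in sporadic tumors against 6 in controls). Of 16 measured MHC class I and immunoproteasome genes, 2 fell in CAC tumors (H2-K1 and H2-M3) and none rose, while in sporadic tumors 1 rose (Pdia3, a chaperone of MHC class I loading) and 2 fell (Psmb10, an immunoproteasome subunit, and Erap1, which trims peptides). Of all probe sets, 14.2% were called higher and 25.6% lower in CAC tumors, and 17.8% and 28.2% in sporadic tumors. Without either CAC control none fell in CAC tumors, and without CAC tumor 1 the counts were 2 higher in CAC tumors and 2 higher and 4 lower in sporadic tumors. Without CAC tumor 4, 1 was called higher in CAC tumors.

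**Figure D2:**
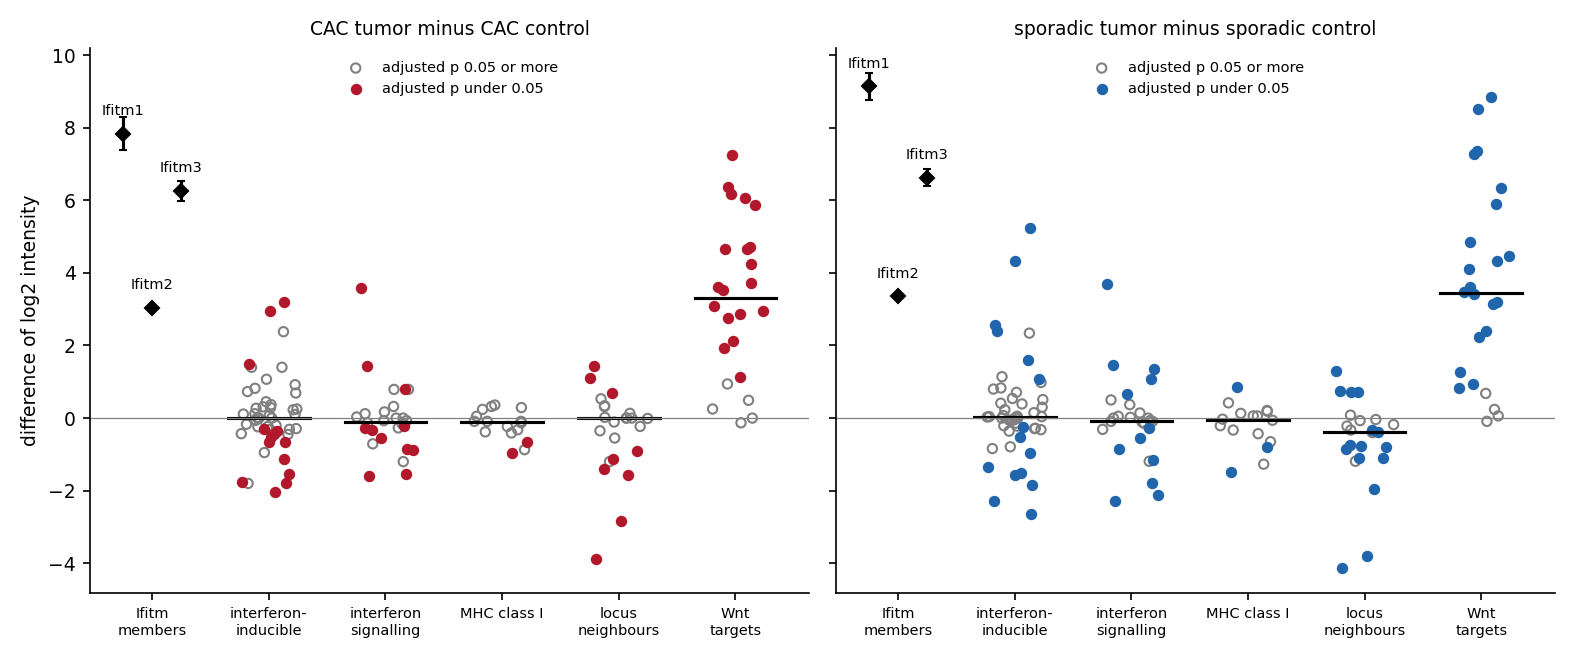
Log2 change of each measured gene of 5 lists (filled where the adjusted p was under 0.05; black bars are medians) in CAC tumors over CAC controls and in sporadic tumors over sporadic controls, with the 3 Ifitm genes as diamonds (whiskers are SE). The interferon-inducible list has medians of 0.0 and 0.02, the Wnt target list medians of 3.31 and 3.43. The lists were chosen with earlier results of these data known.

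Most genes of the Wnt target list rose in the tumors of both models. The list was chosen with earlier results of these data known, so its counts are a description and no independent test. Of 24 measured, 19 rose and none fell in CAC tumors, and 20 rose and none fell in sporadic tumors, with median log2 changes of 3.31 and 3.43. Of all probe sets, 14.2% were called higher and 25.6% lower in CAC tumors, and 17.8% and 28.2% in sporadic tumors. When CAC control 1 was left out, 1 was called lower in CAC tumors. Mmp7, a matrix protease, rose by 7.26 ± 0.29 in CAC tumors and 8.51 ± 0.24 in sporadic tumors (log2; limma adjusted p = 3.37e-09 and 1.35e-10). Notum, a secreted Wnt inhibitor, rose by 6.36 ± 0.41 and 7.27 ± 0.35 (limma adjusted p = 4.30e-07 and 2.31e-08). Between the tumors, 6 of the 24 were lower in CAC tumors and none was higher, beside 7.58% of all probe sets called lower and 7.88% called higher. The count was 3 without CAC tumor 4 and 10 without sporadic tumor 1. The 6 included Axin2, the negative feedback regulator of the pathway, at 451 in CAC tumors against 1405 in sporadic tumors (limma adjusted p = 0.00119), and Apcdd1, another inhibitor, at 774 against 3512 (limma adjusted p = 0.0262).

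Genes whose products bind, modify or degrade Ifitm proteins were counted next. Of 16 measured, 4 rose and 4 fell in CAC tumors and 5 rose and 3 fell in sporadic tumors. Of all probe sets, 14.2% were called higher and 25.6% lower in CAC tumors, and 17.8% and 28.2% in sporadic tumors, so 4 of 16 lower is no more than the general share. Cd81, a tetraspanin whose human counterpart binds IFITM1, rose to 2034 in CAC tumors against 848 in controls (log2 change 1.26 ± 0.14, limma adjusted p = 4.68e-05) and to 1916 in sporadic tumors against 875 in controls (1.13 ± 0.12, limma adjusted p = 2.17e-05). Nedd4, a ubiquitin ligase that targets Ifitm3 for turnover, rose to 1573 in CAC tumors against 751 in controls and to 2041 in sporadic tumors against 725 in controls. Between the tumors Nedd4 was lower in CAC tumors (log2 difference -0.38 ± 0.08, limma adjusted p = 0.00797). Zdhhc7, a palmitoyltransferase able to modify IFITM3 in human cells, fell to 89.8 in CAC tumors against 243 in controls and to 91.5 in sporadic tumors against 282 in controls. Cav1, a caveolar coat protein and a marker of stromal cells, rose to 60.8 in CAC tumors against 9.49 in controls. Without CAC control 1 the counts in CAC tumors were 2 higher and 2 lower, and 2 were lower without CAC tumor 1 or CAC tumor 3. The genes that fell in CAC tumors include Setd7, at a geometric mean of 7 against 8 in controls.

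The genes around the Ifitm cluster on chromosome 7 were counted in the same way. Of 23 measured neighbours, 3 rose and 6 fell in CAC tumors and 4 rose and 11 fell in sporadic tumors, with median log2 changes of -0.01 and -0.38. The shares called higher are near the 14.2% (CAC) and 17.8% (sporadic) of all probe sets, so that count is no result about the neighbours. Called lower were 25.6% and 28.2% of all probe sets. The 11 that fell in sporadic tumors include Odf3, at 4 against 5 in controls, and Cox8b, at 6.38 against 8.28. By at least 2-fold, 5 neighbours fell in CAC tumors and 5 in sporadic tumors. The shares of all probe sets just given carry no fold minimum, so these 2-fold counts have no yardstick here and are not read as a result. Nlrp6, an inflammasome sensor of the intestinal epithelium that lies 3 genes before Ifitm2 in the gene order used here, fell to 23.8 in CAC tumors against 352 in controls (log2 change -3.89 ± 0.49, limma adjusted p = 1.12e-04) and to 18.2 in sporadic tumors against 319 in controls (-4.13 ± 0.42, limma adjusted p = 1.52e-05). Cdhr5, a brush border cadherin, fell to 236 in CAC tumors against 1673 in controls. On the other side, Rnh1, a ribonuclease inhibitor, rose to 1525 in sporadic tumors against 621 in controls.

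Markers of other cell types moved with the tumors. In bulk samples, more cells of a type and more RNA per cell cannot be told apart. Of 18 fibroblast and matrix markers, 14 rose in CAC tumors and 15 in sporadic tumors, and none fell. The marker counts here and in the next paragraph stand beside 14.2% of all probe sets called higher and 25.6% called lower in CAC tumors, and 17.8% and 28.2% in sporadic tumors. Their summed intensity was 6682 to 16292 in CAC tumors against 301 to 410 in CAC controls, and 9088 to 18397 in sporadic tumors against 171 to 194 in sporadic controls. In controls, 10 of the 18 (CAC) and 13 of the 18 (sporadic) had a geometric mean under 10. Of 16 macrophage and neutrophil markers, 12 rose in CAC tumors and 13 in sporadic tumors, with sums of 5587 to 16056 in CAC tumors against 468 to 552 in CAC controls, and 3975 to 9251 in sporadic tumors against 514 to 574 in sporadic controls. Epithelial markers summed to 54917 to 63110 in CAC tumors against 71811 to 72758 in CAC controls, and 46724 to 55754 in sporadic tumors against 66909 to 67492 in sporadic controls, and 7 of 12 fell in each model. Ifitm genes are expressed in stromal and immune cells as well as in tumor epithelium, and the part of these cells in the Ifitm levels was not tested.

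Endothelial and smooth muscle markers also moved with the tumors. Of 13 endothelial markers, 5 rose in CAC tumors and 8 in sporadic tumors, with sums of 425 to 879 in CAC tumors against 173 to 226 in CAC controls, and 359 to 858 in sporadic tumors against 138 to 170 in sporadic controls. The count in CAC tumors was 3 without either CAC control. Of 10 smooth muscle markers, 3 rose in CAC tumors (5 without CAC tumor 2) and 4 in sporadic tumors, with sums of 699 to 1843 in CAC tumors against 164 to 192 in CAC controls, and 652 to 1604 in sporadic tumors against 184 to 216 in sporadic controls. Of 10 B and plasma cell markers, 1 rose in each model, Jchain, the joining chain of secreted antibodies, with 1126 in CAC tumors against 3.46 in controls and 79.7 in sporadic tumors against 3 in controls, and 3 fell in each model, near the share of all probe sets called lower. The count that rose in CAC tumors was 2 without sporadic tumor 2, sporadic tumor 4 or sporadic control 2. T and NK cell markers had summed intensities of 90 to 131 in tumors and 91 to 112 in controls, and at least 11 of the 14 had a geometric mean under 10 in each group. Of these 14, 4 fell in CAC tumors and 2 rose in sporadic tumors.

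Within the tumors, the marker sums and the Ifitm levels did not run together on every array. CAC tumor 1 had the highest fibroblast and matrix sum of the CAC tumors (16292) and the highest macrophage and neutrophil sum (16056), and it was the dimmest CAC tumor for Ifitm1, Ifitm2 and Ifitm3. Sporadic tumor 2 was the brightest sporadic tumor for Ifitm1 and Ifitm3 and the dimmest for Ifitm2. It had the highest macrophage and neutrophil sum of the sporadic tumors (9251) and the second highest fibroblast and matrix sum (16430). Sporadic tumor 1, the dimmest sporadic tumor for Ifitm1 and Ifitm3, had the highest fibroblast and matrix sum (18397) and the lowest macrophage and neutrophil sum (3975). With 4 and 5 tumors a group, no correlation was computed.

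**Figure D3:**
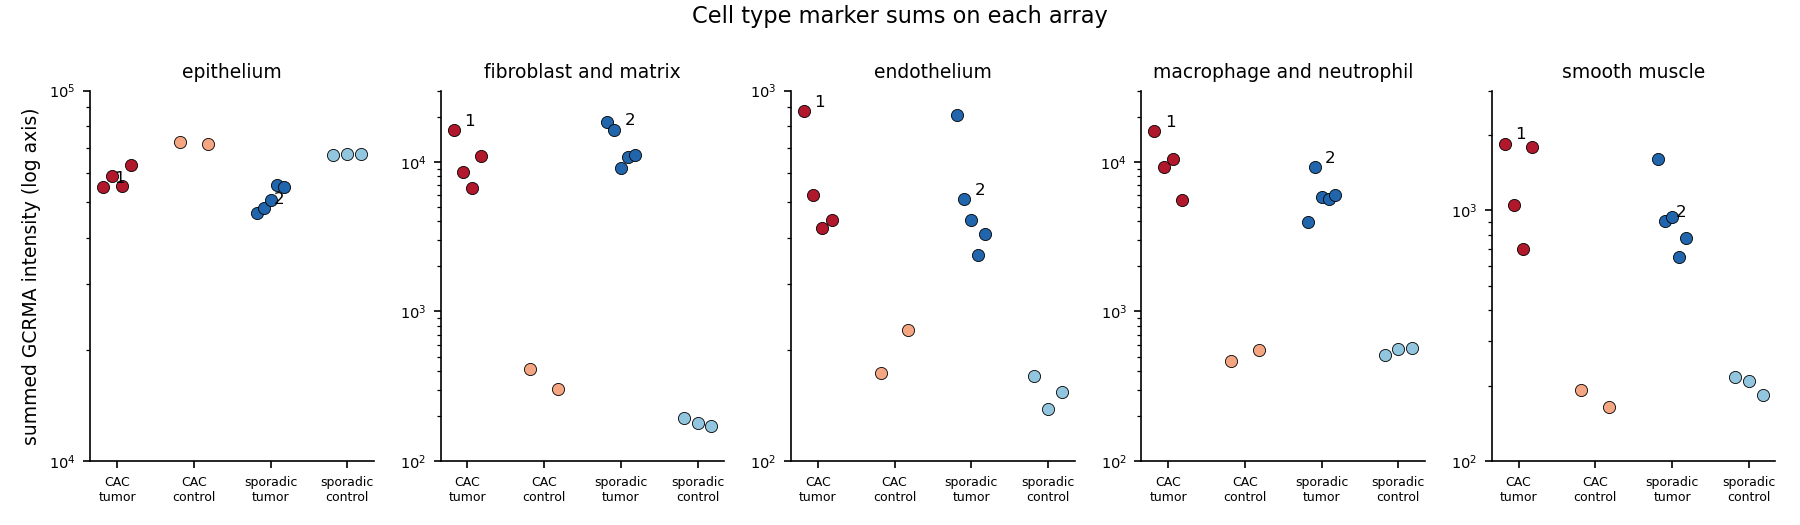
Summed GCRMA intensity of marker genes of 5 cell types (log axes, a range of its own in each panel) on each of 14 arrays in 4 groups. The digit 1 marks CAC tumor 1 and the digit 2 marks sporadic tumor 2, the arrays at the ends of the Ifitm1 range in their groups, with fibroblast and matrix sums of 16292 and 16430.

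Each member's log2 profile over the 14 arrays, centred on its own mean, was set against other probe sets with 1 gene symbol. Likeness was measured as the root mean square difference. This is a description over arrays that fall into tumors and controls, so any gene with a like difference between them scores well. For Ifitm1 the nearest were Htra1 (0.39), Mt4 (0.56), Apcdd1 (0.6), Igfbp4 (0.65) and Vim (0.66). Htra1, a secreted serine protease, read 243, 881, 829 and 992 in CAC tumors 1 to 4, and Mt4, a metallothionein, read 348, 2263, 2428 and 2851. Both thus shared with Ifitm1 the low value of CAC tumor 1, which was the lowest CAC tumor for 3 of the 5 genes nearest to Ifitm1. For Ifitm3 the nearest were Pdlim4 (0.36), Slc25a4 (0.4), Pdlim7 (0.4), Igfbp4 (0.44) and Notum (0.47). For Ifitm2 the nearest were Cks1b (0.26), Cnn3 (0.27), Wdr6 (0.31), Krt7 (0.32) and Lamp2 (0.33), the last of which is a lysosomal membrane protein. Between members the difference was 1.1 for Ifitm1 and Ifitm3, 1.58 for Ifitm2 and Ifitm3 and 2.62 for Ifitm1 and Ifitm2. The nearest genes were picked as the smallest differences, so larger ones between members are no result. Among 22625 probe sets ordered from the nearest, Ifitm3 ranked 24 and Ifitm2 ranked 312 for Ifitm1. For Ifitm3, Ifitm1 ranked 102 and Ifitm2 ranked 268, and for Ifitm2, Ifitm3 ranked 10903 and Ifitm1 ranked 22109.

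**Figure D4:**
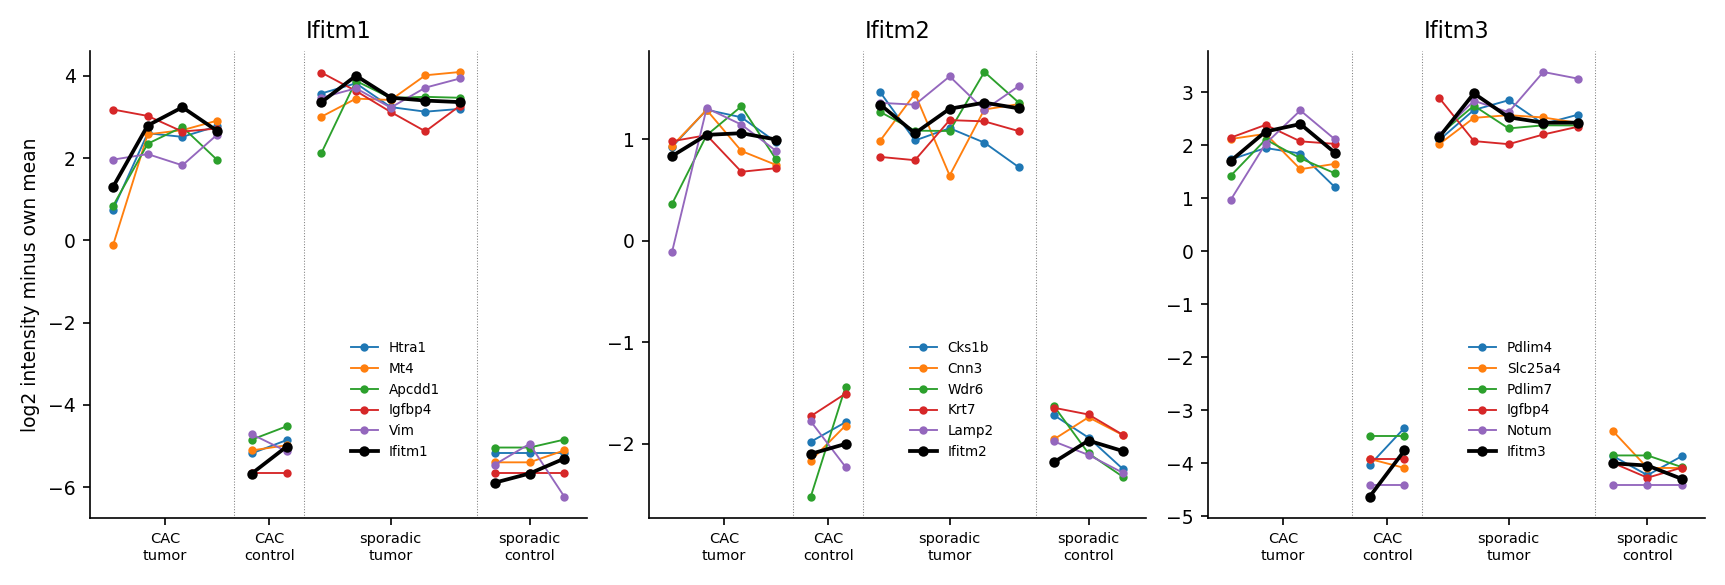
Log2 intensity minus the probe set's own mean over 14 arrays (y axis) for Ifitm1, Ifitm2 and Ifitm3 (black) and the 5 genes with the nearest profile to each (colours), array by array in 4 groups. CAC tumor 1, the first array on the left, is the lowest CAC tumor for Ifitm1 and for 3 of its 5 nearest genes.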

How the data were processed

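Total RNA of 9 tumors and 5 pools of epithelium was measured on 1-colour Affymetrix arrays. The deposited table holds 22690 probe sets, and its intensity values were computed by the authors with GCRMA, per the labels, which give no version. The values are whole numbers between 2 and 31599 on a linear scale, and a second deposited table of the same intensity values had 0 differing values. The deposited table also gives the authors' fold change, a ratio, with its direction, and a corrected p-value by the authors whose test the sources used here do not name. Raw array files and probe letters were not used here, so cross-hybridisation between the closely related Ifitm transcripts was not checked.

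After removal of 64 control probe sets, 22626 were tested. Intensities were taken to log2 without an offset, and 4 group means were fitted to all 14 arrays with lmFit and eBayes of limma 3.58.1 in R 4.3.3 (10 residual and 0.543 prior degrees of freedom). Benjamini-Hochberg adjustment ran over all probe sets in each comparison, with a threshold of 0.05, and the steps were tested on simulated data. "Rose" and "fell" are used of genes of the lists that passed; fold changes are differences of log2 means, and errors are SE unless named SD. A listed gene was represented by its probe set with the largest mean, after old symbols had been updated through RefSeq (10230 of 13153 symbols current, 2367 updated, 556 kept). Of the probe sets, 831 carry several symbols, 604 none and 20 a symbol turned into a date, and none of these was named. Motifs were searched in Python 3.11.15.

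The members and gene lists were chosen with earlier results of these data known. Named were the 3 members, up to 4 passing genes with the largest change per list (2 per marker list), the interferon receptors, Irf7, and the 5 genes nearest each member in profile; 1 further gene of this rule is not reported here. Other genes and counts named in the text were chosen after their values were seen. Alternatives were quantile normalization, an offset of 16, a minimum mean of 32, eBayes with trend and robust settings, a 2-fold minimum, the replicate number as a block, fits on the groups compared, an exact permutation test and leaving out each array.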

Additional observations from a re-analysis of the deposited data

Results flagged for a closer look

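Sporadic tumor 2 stood far from the other sporadic tumors for Ifitm1, at 5710 where the other 4 had a geometric mean of 3749. The gap to the nearest tumor took 0.825 of the range of the group, above the critical 0.71 for 5 samples. For Ifitm2 the same tumor stood apart on the low side, at 4324 where the other 4 had a geometric mean of 5205, with a gap of 0.801 of the range. Of 8 groups of 4 or 5 arrays examined, 2 were set apart in this way, both by this same tumor. Chance alone flags about 1 of 20 in independent tests. The 8 groups reuse the same tumor arrays for several genes, so their count cannot be set against that rate. Without this tumor the log2 difference of CAC minus sporadic tumors was -0.9 for Ifitm1 and -0.34 for Ifitm2.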

How the results depend on the processing

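The 3 Ifitm genes were chosen on their changes over controls, so the sign of these changes was not put to a test. With an offset of 16, the log2 change of Ifitm1 was 6.35 in CAC tumors and 7.46 in sporadic tumors. Between CAC and sporadic tumors, Ifitm1 (-1.02) passed in limma among probe sets with a mean of at least 32 (adjusted p = 0.0317). Ifitm2 did not pass between these tumors at a mean of at least 32 (-0.29, limma adjusted p = 0.0536). The exact permutation p was 0.0159 for Ifitm1, 0.0317 for Ifitm2 and 0.0794 for Ifitm3. These permutation p-values are not adjusted over probe sets and are not comparable with adjusted ones. For Ifitm1, limma's p before adjustment was 0.0136. With arrays left out in turn, Ifitm1 ranged between -1.27 and -0.62 (limma adjusted p 0.0389 to 0.148), Ifitm2 between -0.34 and -0.24 (0.00389 to 0.0497) and Ifitm3 between -0.56 and -0.33 (0.153 to 0.428). The change of Ifitm3 in CAC tumors ranged between 5.81 and 6.68 by which CAC control was left out, and its difference of the tumor changes between -0.8 and 0.07. That difference for Ifitm2 was -0.42 with quantile normalization. The cause of these shifts was not tested. Of interferon-inducible genes, 3 rose and 11 fell in CAC tumors, and on the CAC arrays alone it was 1 and 5. In the main fit 5 fell by at least 2-fold, a count given without the share of all probe sets at that minimum. With arrays left out, 1 to 5 rose and 6 to 12 fell in CAC tumors, and 3 to 6 rose and 8 to 11 fell in sporadic tumors. Of counts for the other lists, 137 of 864 moved by over 1.5 times under a changed setting, and 192 of 1512 with an array left out; most are counts of a few genes.

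Replicate numbers did not pair the samples, since same-numbered tumor and control arrays had correlated deviations of only -0.08 to 0.06. With the replicate number as a block, Ifitm2 between tumors gave -0.28 (limma adjusted p = 0.0901), 1 interferon-inducible gene rose in CAC tumors, and no other call on the 3 genes changed. The settings were applied to Ifitm6 after seeing the data, and with the block it gave 2.61 in sporadic tumors (limma adjusted p = 0.106). The second deposited table, being identical, gave no value of its own. Controls of Ifitm1 read 6 to 11, near the lowest intensities, and the CAC control spread rests on 2 pools.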
